A study of Rattus norvegicus with 9 samples.

Results

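The genes described here are 6 ligands of the bone morphogenetic protein (BMP) family, Bmp2, Bmp3, Bmp4, Bmp5, Bmp6 and Bmp7, and 4 secreted antagonists, Nog (noggin), Grem1 (gremlin 1), Chrd (chordin) and Fst (follistatin). They were found on Agilent one-colour rat arrays by the accession that the scanner output gives for each probe. All 10 genes had a probe, and 11 of the 30356 probes used were theirs, since Grem1 had a pair of probes. The arrays covered 15163 genes with a symbol. The genes were picked with the group differences on these arrays already known, so their differences are described with errors and intervals and without a test.

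RNA had come from prostates of male Sprague Dawley rats that were 6 weeks old at purchase, with 3 arrays in each of 3 groups. Sham rats had a sham operation, corn oil under the skin and water by mouth. BPH rats, the model of benign prostatic hyperplasia, were castrated and received dihydrotestosterone at 3 mg/kg daily for 4 weeks, with water by mouth. BPH+ghrelin rats had the same surgery and androgen, and were also given rat ghrelin by gavage, at 20 nmol/kg daily for 2 weeks, starting 2 weeks after the androgen began. One figure legend of the study names another dose and route of ghrelin. BPH differs from sham by both castration and dihydrotestosterone, and no array came from castrated rats without androgen or from sham rats given ghrelin. The study kept 8 rats per group and arrayed prostates of 3 per group, without saying how these were picked.

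The 9 arrays differed in brightness. Sham replicate 2 was the dimmest, with a median raw signal of 40.9 against 73.3 to 133 on the other arrays, and 61.4% of its probes were well above background against 69.5 to 75%. No spot was saturated. Sham replicate 3 took the middle value of its group at 74.4% of probes, BPH replicate 2 at 72% and BPH+ghrelin replicate 2 at 69.7%. Independent arrays of a group would take the middle about equally often, and the errors and p-values over n = 3 assume independent arrays. All 8 markers of luminal prostate epithelium, probasin among them, were well above background on every array. Among 6 measured markers of seminal vesicle and coagulating gland, between 4 and 6 were above background on each sham array, between 5 and 6 on each BPH array and between 4 and 6 on each BPH+ghrelin array. These counts do not show amount, and the signal of this list, which differed widely, is given below with the other markers. Values below are log2 of the background-subtracted signal after quantile normalization, so 1 unit is a 2-fold difference, and a level can be compared between arrays but not between probes.

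BMPs are secreted dimers of the transforming growth factor β superfamily that bind pairs of type I and type II serine/threonine kinase receptors, which phosphorylate SMAD1, SMAD5 and SMAD9. These SMADs enter the nucleus with SMAD4 and act on target genes, of which the Id genes and the inhibitory SMADs are the best known. Noggin, gremlin and chordin bind ligands outside the cell and keep them from their receptors, whereas follistatin mainly binds activins and also some BMPs. In the developing rodent prostate, BMP4 and BMP7 limit budding and branching, and noggin counteracts them.

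RefSeq windows of the 250 bases before the annotated start, from assembly GRCr8, were on hand for 7 of the 10 genes. Bmp2, Bmp7 and Fst had no entry. The windows of Bmp6 and Grem1, which were higher in BPH+ghrelin than in both other groups, of Bmp4, which was lower, and of the antagonist Nog are shown in the direction of the gene. Capitals mark the letters GGCGCC, the GC-rich element bound by SMAD1 and SMAD5. The coordinates, all on the minus strand, are chr17:26675262-26675511 for Bmp6, chr15:22101934-22102183 for Bmp4, chr3:120978320-120978569 for Grem1 and chr10:74627502-74627751 for Nog.
Bmp6: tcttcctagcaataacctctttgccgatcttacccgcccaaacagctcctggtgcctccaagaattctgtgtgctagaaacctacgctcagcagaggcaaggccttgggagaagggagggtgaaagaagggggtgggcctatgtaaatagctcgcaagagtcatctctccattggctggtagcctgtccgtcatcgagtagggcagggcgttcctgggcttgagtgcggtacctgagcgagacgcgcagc
Bmp4: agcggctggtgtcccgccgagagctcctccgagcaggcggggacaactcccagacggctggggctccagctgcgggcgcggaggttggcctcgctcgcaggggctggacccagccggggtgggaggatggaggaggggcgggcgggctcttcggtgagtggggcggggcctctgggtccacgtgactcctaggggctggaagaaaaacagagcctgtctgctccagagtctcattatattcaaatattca
Grem1: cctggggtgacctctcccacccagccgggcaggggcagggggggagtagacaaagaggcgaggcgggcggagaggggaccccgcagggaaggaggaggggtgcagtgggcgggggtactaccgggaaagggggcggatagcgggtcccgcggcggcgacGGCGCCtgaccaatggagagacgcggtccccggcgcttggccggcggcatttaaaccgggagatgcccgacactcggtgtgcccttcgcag
Nog: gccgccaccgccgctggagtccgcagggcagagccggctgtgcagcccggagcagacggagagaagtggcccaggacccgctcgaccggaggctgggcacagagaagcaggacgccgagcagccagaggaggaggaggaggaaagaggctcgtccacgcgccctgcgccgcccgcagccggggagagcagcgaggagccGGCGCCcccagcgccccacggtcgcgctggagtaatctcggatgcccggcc
The letters GGCGCC, which read the same on both strands, stood 91 bases before the start of Grem1, 51 bases before that of Nog and 203 bases before that of Chrd. They were found in 3 of 3 antagonist windows and 0 of 4 ligand windows (Bmp3, Bmp4, Bmp5 and Bmp6), against 8.69% of all 33469 rat windows. The antagonist windows are rich in G and C (74% in Nog, 72% in Grem1 and 78.4% in Chrd, against 56.4% in Bmp6 and 66.4% in Bmp4), and 45.3% of the 2024 windows with at least 72% G and C hold the element. The androgen and glucocorticoid receptor half-site AGAACA, read on both strands, occurs in 17.5% of all windows and was found only in that of Bmp5 among the 7, where it overlaps the cAMP response element core TGACGT (6.95% of windows). TATAAA (12.9% of windows) was in none of the 7. The windows of Bmp6, Bmp4 and Chrd lie inside the annotated span of their gene, so each belongs to 1 of several possible starts. A match is only a description of the letters.

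Across the 9 arrays, 5 genes (Bmp2, Bmp4, Bmp7, Chrd and Fst) were well above background everywhere, Bmp3 and Nog on 8 arrays, Bmp6 on 7 and the brighter Grem1 probe on 4. Bmp5, a ligand of skeletal development, was above background on 0 of 9 arrays, and its log2 signal lay between 0.69 and 1.35 in all groups. It was left out of every comparison. The plot of the 10 genes by array shows that the ligands did not share 1 order of groups.

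**Figure D1:**
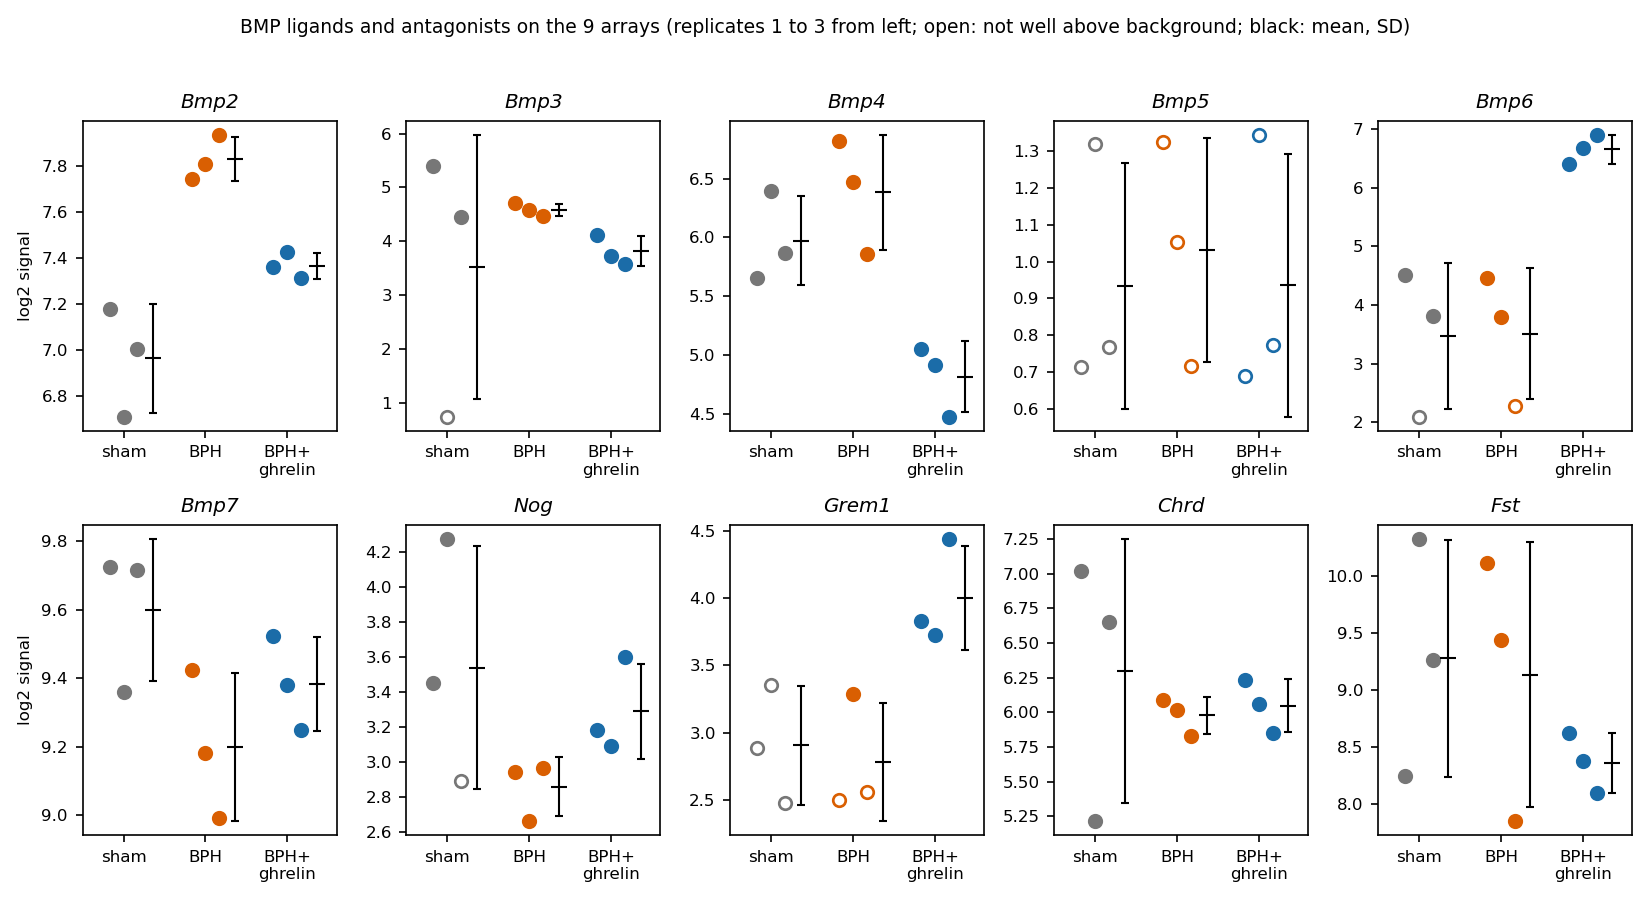
Log2 signal (vertical axis, own scale for each gene) of the 6 BMP ligands and 4 antagonists on each of the 9 arrays, by group. Points are arrays, open where the probe was not well above background, and black marks are the group mean with SD (n = 3). The 3 BPH+ghrelin arrays lie above all others for Bmp6 and Grem1 and below all others for Bmp4, while Bmp2 separates all 3 groups.

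Bmp6 encodes a ligand best known as the signal by which liver endothelium controls hepcidin and iron. Its level was 4.52, 2.10 and 3.82 on the sham arrays, 4.46, 3.80 and 2.27 on the BPH arrays, and 6.40, 6.68 and 6.89 on the BPH+ghrelin arrays. Sham replicate 2 and BPH replicate 3 were not well above background. Every BPH+ghrelin array was higher than every array of the other groups, and the sham and BPH arrays overlapped fully. The difference of means from BPH was 3.15 ± 0.69 (SE, n = 3 and 3), 8.86-fold, with a 95% interval of 1.56 to 4.73. Here and below, each error takes its spread from all 3 groups and not only from those compared. From sham it was 3.18 ± 0.69, 9.07-fold (interval 1.60 to 4.76), whereas BPH and sham differed by 0.03 ± 0.69. Part of the size rests on the readings that were not well above background. Without BPH replicate 3 the difference from BPH was 2.53 (5.78-fold), and without sham replicate 2 that from sham was 2.49. The study had itself picked Bmp6 from these arrays as a gene raised with ghrelin, so this separation is not independent evidence. In bulk tissue, a change in the share of the cells that make a transcript cannot be told apart from a change in RNA per cell, here and in all that follows.

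Bmp4, a ligand made in prostate stroma, ran the other way. Its level was 5.66, 6.39 and 5.87 in sham, 6.82, 6.47 and 5.86 in BPH, and 5.05, 4.92 and 4.47 in BPH+ghrelin. The BPH+ghrelin arrays were the lowest 3 of the 9, while sham and BPH overlapped. BPH+ghrelin was 1.57 ± 0.29 below BPH on the log2 scale, with a mean of 4.81 vs. 6.38, or 2.97-fold lower (interval of the difference -2.25 to -0.90). Against sham it was 2.23-fold lower (difference -1.16 ± 0.29, interval -1.83 to -0.49), and BPH exceeded sham by 0.41 ± 0.29 (interval -0.26 to 1.09). With each array left out in turn, the difference from BPH stayed between -1.84 and -1.35.

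Bmp2, which like BMP4 signals through BMPR1A and BMPR1B, was the ligand that told all 3 groups apart. Sham arrays gave 7.18, 6.71 and 7.00, BPH arrays 7.74, 7.81 and 7.94, and BPH+ghrelin arrays 7.36, 7.42 and 7.31. No group overlapped another, with BPH highest, BPH+ghrelin between and sham lowest. BPH was 0.87 ± 0.14 above sham (1.82-fold, interval 0.54 to 1.20). BPH+ghrelin was 1.38-fold lower than BPH (difference -0.46 ± 0.14) and 1.32-fold higher than sham (difference 0.40 ± 0.14). These steps are all under 2-fold. All 9 arrays were well above background for this probe, and the SD within a group was 0.06 to 0.24.

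Bmp7, which restrains prostate branching, varied less than Bmp2, Bmp4 or Bmp6. Its level was 9.72, 9.36 and 9.71 in sham, 9.42, 9.18 and 8.99 in BPH, and 9.52, 9.38 and 9.25 in BPH+ghrelin. All groups overlapped, in the order sham, BPH+ghrelin and BPH. BPH lay 0.40 ± 0.16 below sham on the log2 scale (difference -0.40, interval -0.78 to -0.02), and the BPH+ghrelin mean differed from BPH by 0.18 ± 0.16 and from sham by -0.22 ± 0.16.

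Bmp3, an atypical ligand that counteracts the others through ACVR2B, was read as 5.39, 0.74 and 4.44 in sham, 4.70, 4.57 and 4.48 in BPH, and 4.12, 3.74 and 3.59 in BPH+ghrelin. The value of 0.74, on sham replicate 2, was not above background and sets the sham mean. With it, BPH exceeded sham by 1.06 ± 1.00, and without it BPH lay below sham, at -0.33. Likewise the difference of BPH+ghrelin from sham turned from 0.29 to -1.10, so no direction against sham can be read. The BPH+ghrelin arrays were all lower than the BPH arrays, by 0.77 ± 1.00 on the log2 scale (1.71-fold lower), with the error taken over all 3 groups.

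Among the antagonists, Grem1 had the pattern of Bmp6 at a much fainter signal. Gremlin binds BMP2, BMP4 and BMP7 and is made by stromal cells in many organs. Its brighter probe gave 2.88, 3.36 and 2.48 in sham, 2.50, 3.29 and 2.56 in BPH, and 3.83, 3.72 and 4.44 in BPH+ghrelin. The probe was above background on 0 of 3 sham arrays, 1 of 3 BPH arrays and 3 of 3 BPH+ghrelin arrays. The measured means of BPH+ghrelin and BPH differed by 1.21 ± 0.31 (2.32-fold, interval 0.50 to 1.93), without overlap, but this size rests partly on BPH replicates 1 and 3, whose readings were not above background. Against sham only a bound exists, and BPH+ghrelin was at least 1.74-fold higher (measured means 4.00 vs. 2.90). For this bound, each sham array entered at its own reading or at its lowest signal well above background, whichever was higher. The other Grem1 probe was above background on 0 of 9 arrays, with means of 2.48 in sham, 1.51 in BPH and 1.06 in BPH+ghrelin, an order that the brighter probe does not share. Because Grem1 entered the comparisons with BPH+ghrelin through the arrays where it is high, its presence among the genes compared there was tied to that difference.

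Nog, Chrd and Fst did not separate the groups in the same way. Noggin, which binds BMP2, BMP4 and BMP7 with high affinity, was read as 3.45, 4.28 and 2.89 in sham, 2.94, 2.66 and 2.97 in BPH, and 3.18, 3.09 and 3.60 in BPH+ghrelin. The lowest sham array (replicate 3) was not above background, and sham spanned nearly the whole range. The 3 BPH+ghrelin arrays were all higher than the BPH arrays, by 0.43 ± 0.32 (1.35-fold, interval -0.31 to 1.18). BPH lay below sham with a difference of -0.68 ± 0.32, which was -0.31 without sham replicate 2. The difference of BPH+ghrelin from sham, -0.25 ± 0.32, was 0.12 without that array.

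Chordin is a BMP antagonist that BMP1-type proteases cleave. Chrd was 7.02, 5.22 and 6.65 in sham, 6.09, 6.02 and 5.83 in BPH, and 6.23, 6.06 and 5.85 in BPH+ghrelin. The sham arrays held both the highest and the lowest value, and the other groups lay close together inside that range. Over all arrays no difference of means was larger than its error of 0.41, and the interval for BPH+ghrelin against BPH was -0.87 to 1.01. The differences from sham depended on single arrays. That of BPH from sham was -0.86 without sham replicate 2 and 0.04 without sham replicate 1. That of BPH+ghrelin from sham ranged from -0.79 to 0.11 with 1 array left out.

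Fst was 8.24, 10.33 and 9.26 in sham, 10.12, 9.44 and 7.85 in BPH, and 8.62, 8.37 and 8.09 in BPH+ghrelin. Its range within sham was 2.09 and within BPH 2.27, which was wider than the difference of BPH+ghrelin from BPH (-0.77 ± 0.65, interval -2.26 to 0.71) or from sham (-0.92 ± 0.65, interval -2.40 to 0.56). All groups overlapped. Without BPH replicate 1 the first difference was -0.28, and without BPH replicate 3 it was -1.42. The difference from sham ranged from -1.44 to -0.39 with 1 array left out.

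**Figure D2:**
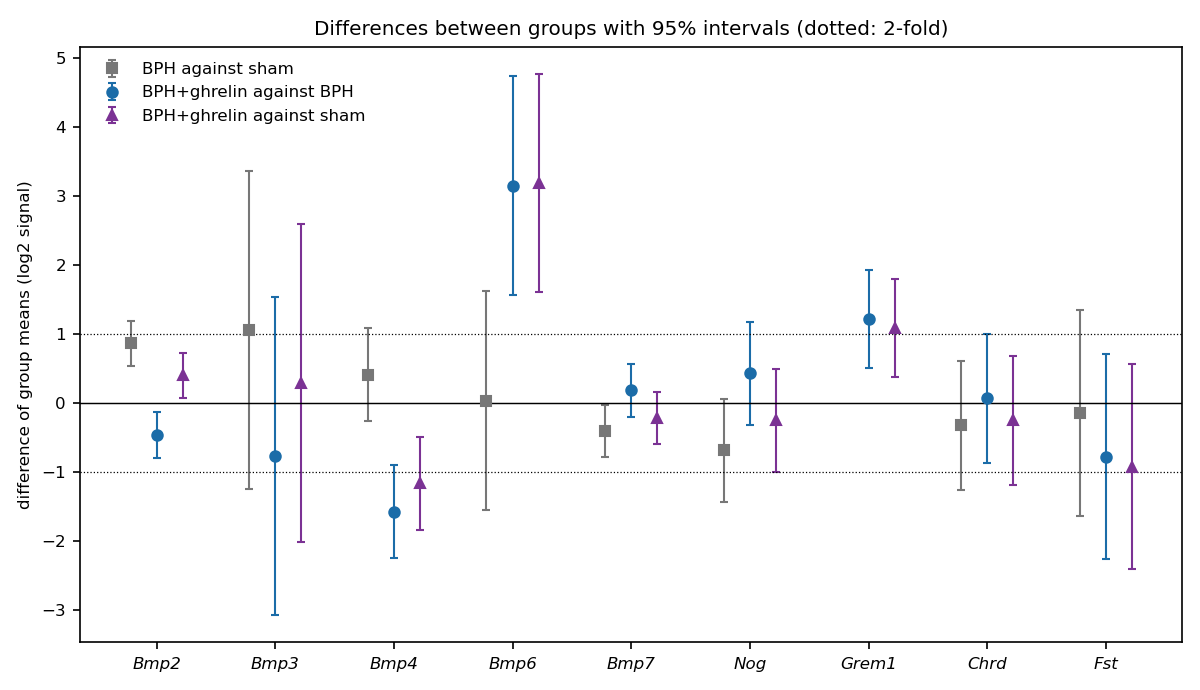
Difference of group means in log2 signal (vertical axis) for the 9 genes that passed the filter, with 95% intervals from the limma fit, for BPH against sham (squares), BPH+ghrelin against BPH (circles) and BPH+ghrelin against sham (triangles). Dotted lines mark a 2-fold difference. Bmp6 reaches 3.15 and 3.18 in the comparisons with BPH+ghrelin, and all intervals drawn for Chrd and Fst include 0.

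Set against all genes of the arrays, 8 of the 10 genes could be compared between BPH and sham, and 9 in each of the other comparisons. All genes, here and below, include entries without a symbol, so the totals exceed the 15163 genes with one. Between BPH and sham, 1 of 8 had groups that did not overlap (Bmp2), against 31.3% of all 19552 genes, and 1 was at least 2-fold apart (Bmp3, through sham replicate 2), against 8.16%. Between BPH+ghrelin and BPH, 3 of 9 were at least 2-fold apart (Bmp6 and Grem1 higher, Bmp4 lower), against 6.10% of 19749 genes. In that comparison 6 of 9 did not overlap (Bmp6, Grem1 and Nog higher, Bmp2, Bmp3 and Bmp4 lower), against 39.2% of all genes (19.8% higher and 19.3% lower). Between BPH+ghrelin and sham, the measured means of 3 of 9 were at least 2-fold apart, against 7.41% of 19197 genes, but only Bmp6 and Bmp4 of these are measured on both sides, since Grem1 has a bound below 2-fold. In that comparison 4 of 9 did not overlap, against 30.4%. The median difference of the genes compared was -0.05, 0.07 and -0.22 in the 3 comparisons, and that of all genes 0.04, 0.02 and 0.04. Since these differences were in view when the genes were picked, nothing is read from the counts, and the comparisons share arrays.

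The plot of settings follows Bmp6, Grem1, Bmp4 and Bmp2 through each alternative processing. Dropping the filter, averaging the probes that pass and the replicate block leave these 4 differences as they are by construction. Under 75th percentile scaling, normexp, the slide block and the deposited matrix, and with each array left out, Bmp6 and Grem1 were higher and Bmp4 lower in BPH+ghrelin than in BPH and sham, and Bmp2 stayed lower than in BPH and higher than in sham. The fainter Grem1 probe enters none of these settings. For Bmp6, Grem1 and Bmp4 the sizes changed most with the normexp background correction, which adds an offset of 50 to each signal. Under it the difference from BPH was 1.07 for Bmp6, 0.19 for Grem1, -0.62 for Bmp4 and -0.33 for Bmp2. An offset added to every signal draws log differences toward 0 by construction, the more so the fainter the probe.

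**Figure D3:**
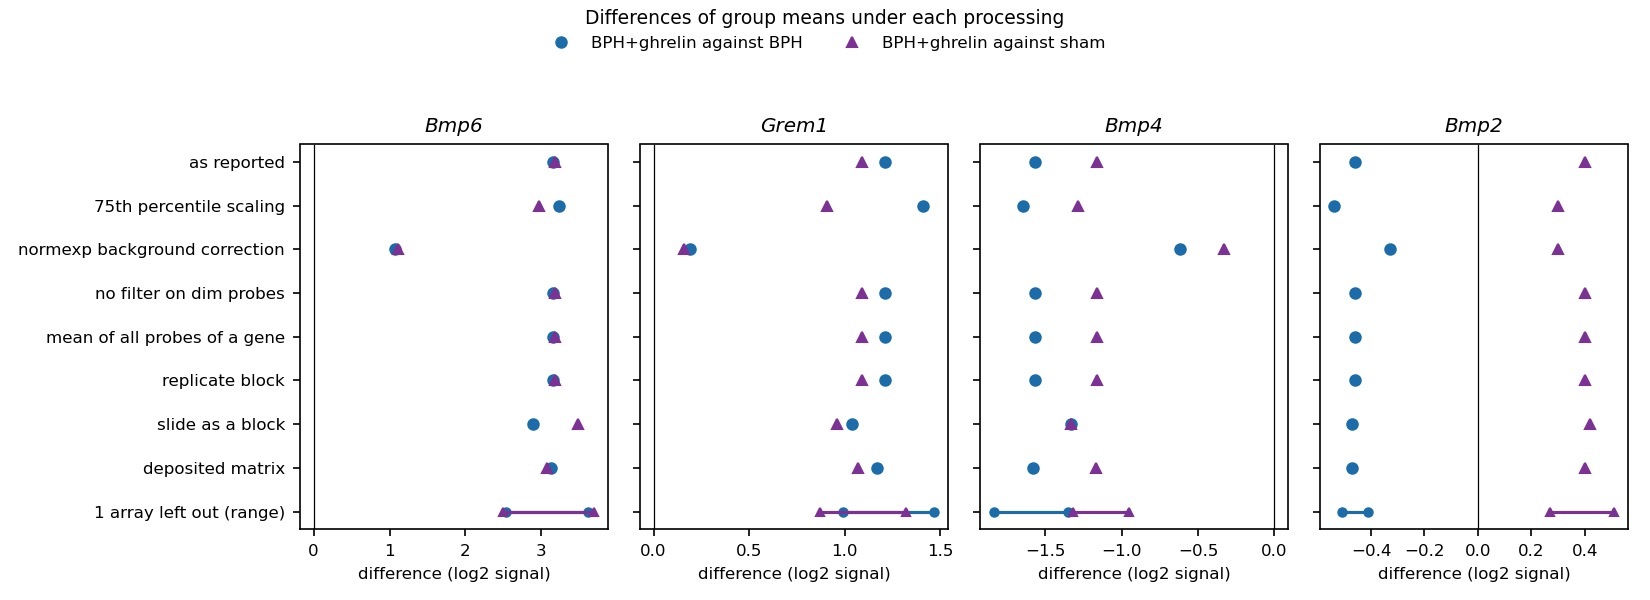
Difference of group means in log2 signal (horizontal axis) for Bmp6, Grem1, Bmp4 and Bmp2 under the reported processing and 7 alternatives, and the range with 1 array left out at a time, for BPH+ghrelin against BPH (circles) and against sham (triangles). No filter, the mean of probes and the replicate block repeat the reported values by construction, and the normexp correction gives the smallest values for Bmp6, 1.07 and 1.11.

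The scanner output gives each array a scan identifier, and arrays that share an identifier are called a slide here. By this reading the arrays lay on 3 slides, and the groups were not spread evenly over them. Slide 1 held the 3 BPH arrays and BPH+ghrelin replicate 1, slide 2 held BPH+ghrelin replicates 2 and 3 with sham replicates 1 and 2, and slide 3 held sham replicate 3. Within slide 1, the BPH+ghrelin array differed from the BPH mean by 2.89 for Bmp6, 1.04 for Grem1, -1.33 for Bmp4 and -0.47 for Bmp2. Within slide 2, BPH+ghrelin differed from sham by 3.48 for Bmp6, -1.33 for Bmp4 and 0.42 for Bmp2. Bmp6, Bmp4 and Bmp2 differed within each slide in the direction seen over all arrays. BPH and sham shared no slide, so no value within a slide exists for them, and a fit with slide as a block compares them only through the BPH+ghrelin arrays. That fit gave differences of 0.89 for Bmp2, 0.00 for Bmp4, 0.59 for Bmp6 and -0.55 for Bmp7.

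Each gene was also set beside 18737 genes that were above background on at least 6 arrays, by Pearson's r over the 9 arrays, which come from 3 groups and 1 common normalization. The genes most like Bmp6 were Slc2a12 (r = 0.978) and Porcn (0.969), and those most like Bmp4 were Irgm (0.988), Akna (0.983) and Cstpp1 (0.979). Bmp2 was followed most closely by Ccdc8 (0.992), Setd5 (0.99) and Jtb (0.989). For Bmp7 the nearest gene was Zmym4 (0.962), then Gtpbp3 (0.954) and Nat8b (0.946). For the antagonists they were Pigb (0.957), Dmbt1 (0.942) and Smtnl1 (0.94) with Nog (0.883, 0.834 and 0.825 without sham replicate 2), Nudt21 (0.987), Fbxo30 (0.977) and Myo1e (0.976) with Chrd, and Txlng (0.975), Wdr31 (0.97) and Prss30 (0.967) with Fst. Bmp3 was nearest to Sft2d2 (0.993), Caap1 (0.993) and Tspan8 (0.989), and with sham replicate 2 left out, as chosen after the values were seen, r was 0.959 for Sft2d2, 0.989 for Caap1 and 0.984 for Tspan8. Among the genes themselves, the highest value was that of Bmp3 with Chrd (0.801, and 0.668 without sham replicate 2) and the lowest that of Bmp3 with Nog (-0.782). The latter rests on that array, and was -0.178 without it. Bmp4 ran against Bmp6 (-0.763, and -0.737 without it) and with Fst (0.757 and 0.742), Bmp2 against Nog (-0.741 and -0.496) and Bmp7 with Chrd (0.706 and 0.887). Without that array the lowest value was that of Bmp2 with Bmp7 (-0.833, from -0.606), and Bmp4 with Nog went from -0.149 to -0.729. With the highest of so many genes taken, such values are a description.

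The rest of the pathway was read from a list of 67 genes, of which 58 had a probe and 50, 52 and 48 passed the filter in the 3 comparisons. In BPH+ghrelin against BPH, 20 of 52 were higher and 32 lower, the median difference was -0.18 against 0.02 for all genes, and 23 did not overlap (5 higher and 18 lower), against 39.2% of all genes. Of the 52, 1 passed the limma test after Benjamini-Hochberg adjustment over all genes, a share close to the 1.48% of all genes that passed, so nothing is read from the count. That gene was Acvrl1, the type I receptor ALK1 of endothelial cells, which was lower with ghrelin. Its level was 6.15, 6.02 and 5.91 in BPH, 5.20, 5.19 and 5.34 in BPH+ghrelin, and 5.78, 5.81 and 5.58 in sham. It was lower in 3 of 3 BPH+ghrelin arrays than in every other array (difference from BPH -0.78 ± 0.13 SE, adjusted p = 0.0316, limma). The call was lost when BPH replicate 1 or 2 or any BPH+ghrelin array was left out (limma adjusted p = 0.0776 to 0.178), and with slide as a block (adjusted p = 0.266). The difference stayed between -0.84 and -0.72 with an array left out and was -0.83 with the slide block. With the normexp background correction the difference was smaller, at -0.35 (limma adjusted p = 0.0403).

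Receptors of the BMP ligands differed in direction. Bmpr2, the type II receptor that binds BMP2, BMP4, BMP6 and BMP7, was 8.68, 8.70 and 8.71 in BPH and 7.74, 7.63 and 7.75 in BPH+ghrelin, a difference of -0.99 ± 0.23 (limma adjusted p = 0.0752). Bmpr1b, a type I receptor, was 8.36, 8.46 and 8.67 in BPH and 9.27, 9.25 and 9.09 in BPH+ghrelin, a difference of 0.71 ± 0.14 (limma adjusted p = 0.0526). Neither passed the threshold here, although the groups did not overlap for either gene. Bmpr1b did pass with 75th percentile scaling (limma adjusted p = 0.0441), with normexp (0.0192), with the deposited matrix (0.0468) and without BPH replicate 3 (0.0476), and its adjusted p ranged from 0.0192 to 0.357 (slide as a block) over all alternatives. Of 11 receptors and co-receptors, 3 were higher and 8 lower in BPH+ghrelin than in BPH.

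The target genes on the list were mostly lower in BPH+ghrelin, and none passed the test in any comparison as reported. Of 10 tested against BPH, 7 were lower and 3 higher, with a median difference of -0.41, and 5 did not overlap, all of them lower (Id1, Id2, Id3, Msx1 and Gata2), against 39.2% of all genes (19.3% lower). The 3 higher targets were Hey1 (0.45), Atoh8 (0.42) and Sp7 (0.28), and Id4 (-0.53) and Gata3 (-0.24) were lower with overlap. Id1, which encodes an inhibitor of helix-loop-helix factors and is a direct SMAD target, was 8.56, 8.33 and 8.05 in BPH, 7.73, 7.43 and 6.98 in BPH+ghrelin, and 10.46, 8.05 and 9.95 in sham. Its BPH+ghrelin arrays were the lowest 3 of the 9 (difference from BPH -0.93 ± 0.55, limma adjusted p = 0.365, and from sham -2.11 ± 0.55, adjusted p = 0.0619). Id3 was 7.17, 6.77 and 6.04 in BPH and 5.65, 5.95 and 6.00 in BPH+ghrelin (difference -0.80 ± 0.31, limma adjusted p = 0.194). Id2 differed by -0.95 ± 0.48 (limma adjusted p = 0.299), and Msx1, a homeobox gene downstream of BMP4 in many organs, by -0.61 ± 0.15 (limma adjusted p = 0.0813). Against sham, without sham replicate 2, Id1 (limma adjusted p = 0.00213), Id2 (0.0289), Id3 (0.0499) and Msx1 (0.0375) passed, and Id1 also with 75th percentile scaling (0.0493). Over all alternatives the adjusted p of these genes reached 0.315 to 0.732, in each case with slide as a block. The Id genes and Msx1 are named for their role, and were chosen after their values had been seen.

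**Figure D4:**
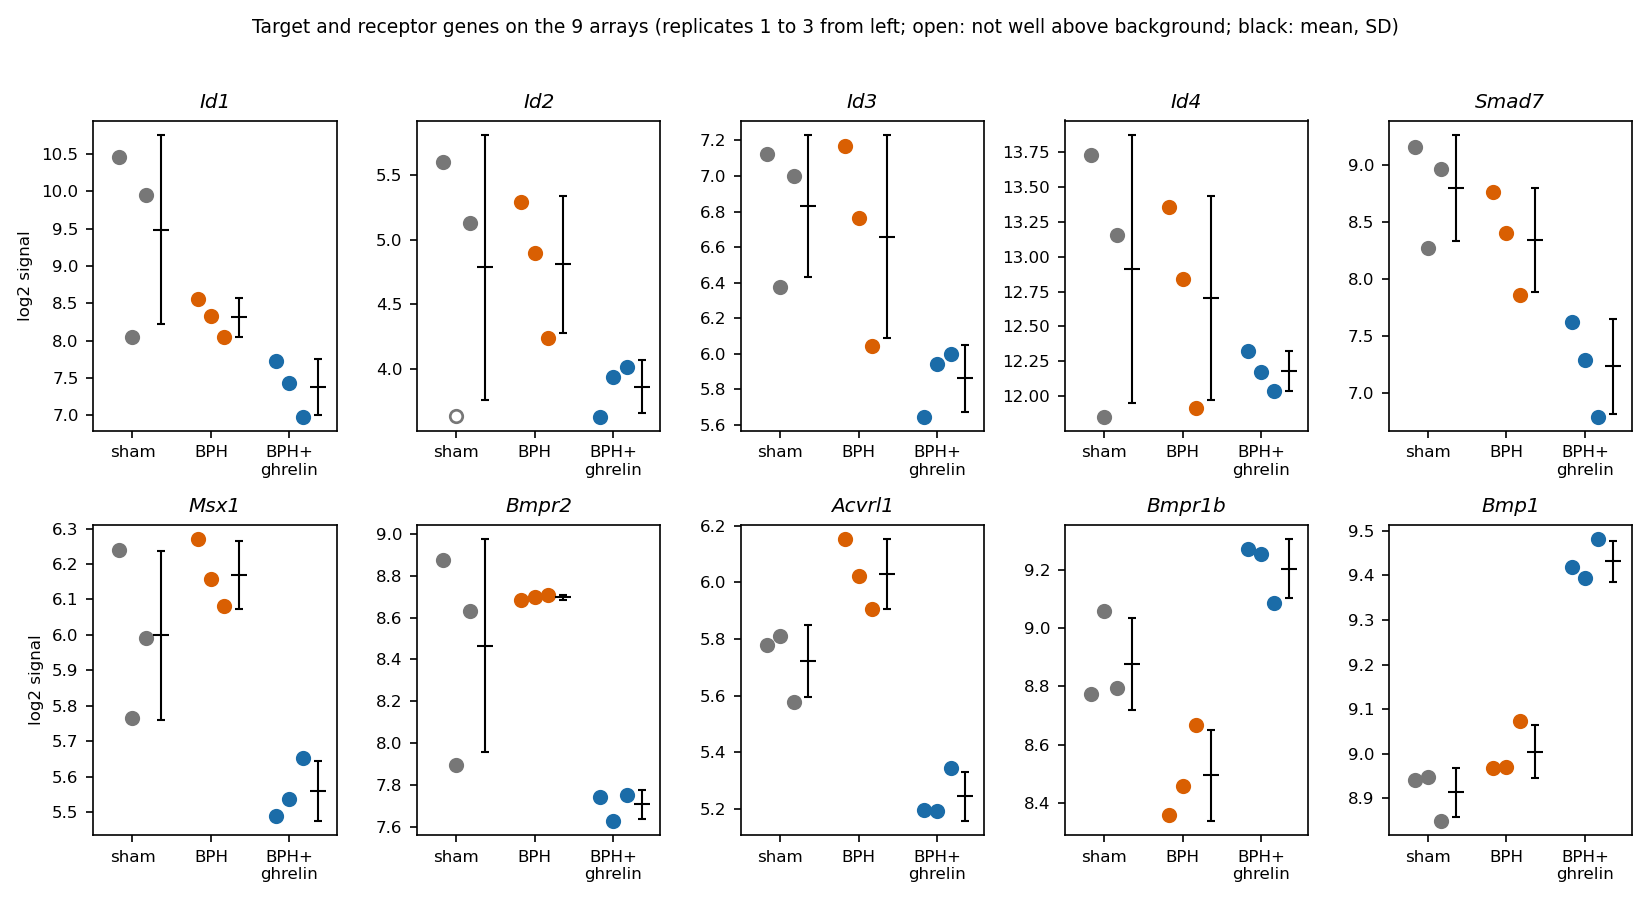
Log2 signal (vertical axis, own scale for each gene) of 6 target or inhibitory genes (Id1 to Id4, Smad7, Msx1), 3 receptors (Bmpr2, Acvrl1, Bmpr1b) and the protease gene Bmp1 on each of the 9 arrays. Points are arrays, open where not well above background, and black marks show mean and SD (n = 3). The BPH+ghrelin arrays lie below all BPH arrays for Id1, Id2, Id3, Smad7, Msx1, Bmpr2 and Acvrl1 and above them for Bmpr1b and Bmp1.

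In BPH+ghrelin against sham, 5 of 48 genes of the list passed the limma test, against 6.30% of all genes. Bmp8a, a ligand, was higher (difference 0.78 ± 0.16, adjusted p = 0.0283, limma), with 4.15, 4.35 and 4.17 in sham and 4.76, 4.93 and 5.30 in BPH+ghrelin. Bmp1, a protease that cleaves chordin and procollagens and is no BMP ligand, was higher as well (difference 0.52 ± 0.10, adjusted p = 0.0281, limma), with 8.94, 8.95 and 8.85 in sham and 9.42, 9.39 and 9.48 in BPH+ghrelin. The other 3 were lower, namely Smad7, an inhibitory SMAD induced by BMP and transforming growth factor β (difference -1.57 ± 0.33, adjusted p = 0.0321), the chordin-like antagonist Chrdl1 (-1.54 ± 0.34, adjusted p = 0.0380), and Inhba, the activin βA subunit that follistatin binds (-0.93 ± 0.17, adjusted p = 0.0214), all by limma. Smad7 also lay below BPH, at 7.62, 7.28 and 6.79 in BPH+ghrelin vs. 8.77, 8.41 and 7.86, but did not pass there (difference -1.11 ± 0.33, limma adjusted p = 0.121). Without sham replicate 2 the count was 15 of the list, and without sham replicate 3 or BPH+ghrelin replicate 2 it was 0. With slide as a block the count was 0 too, with limma adjusted p = 0.157 to 0.277 for these 5 genes. Bmp8a also lost its call with normexp (difference 0.20, limma adjusted p = 0.143). Leaving out each array in turn, Bmp8a and Inhba passed in 3 of 6 fits each, Bmp1 in 2, and Smad7 and Chrdl1 in 1 each.

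Between BPH and sham, 0 of 50 genes of the list passed the limma test after adjustment (4.33% of all genes did), and 13 had an unadjusted p under 0.05 (26.5% of all genes did). The smallest p values belonged to Tll1, a chordin-cleaving protease related to BMP1 (difference -0.82 ± 0.22, limma adjusted p = 0.0705), the activin and BMP receptor Acvr2a (0.65 ± 0.17, adjusted p = 0.0714) and Twsg1, a chordin partner (SE 0.44, adjusted p = 0.0894). Twsg1 was above background on 1 of 3 sham arrays, 3 of 3 BPH arrays and 1 of 3 BPH+ghrelin arrays, so its size is uncertain. Its difference was 1.07 to 2.02 with an array left out, passing without sham replicate 1 (limma adjusted p = 0.0144), and 0.21 with normexp. Tll1 also passed without sham replicate 1 (difference -1.02, limma adjusted p = 0.021).

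**Figure D5:**
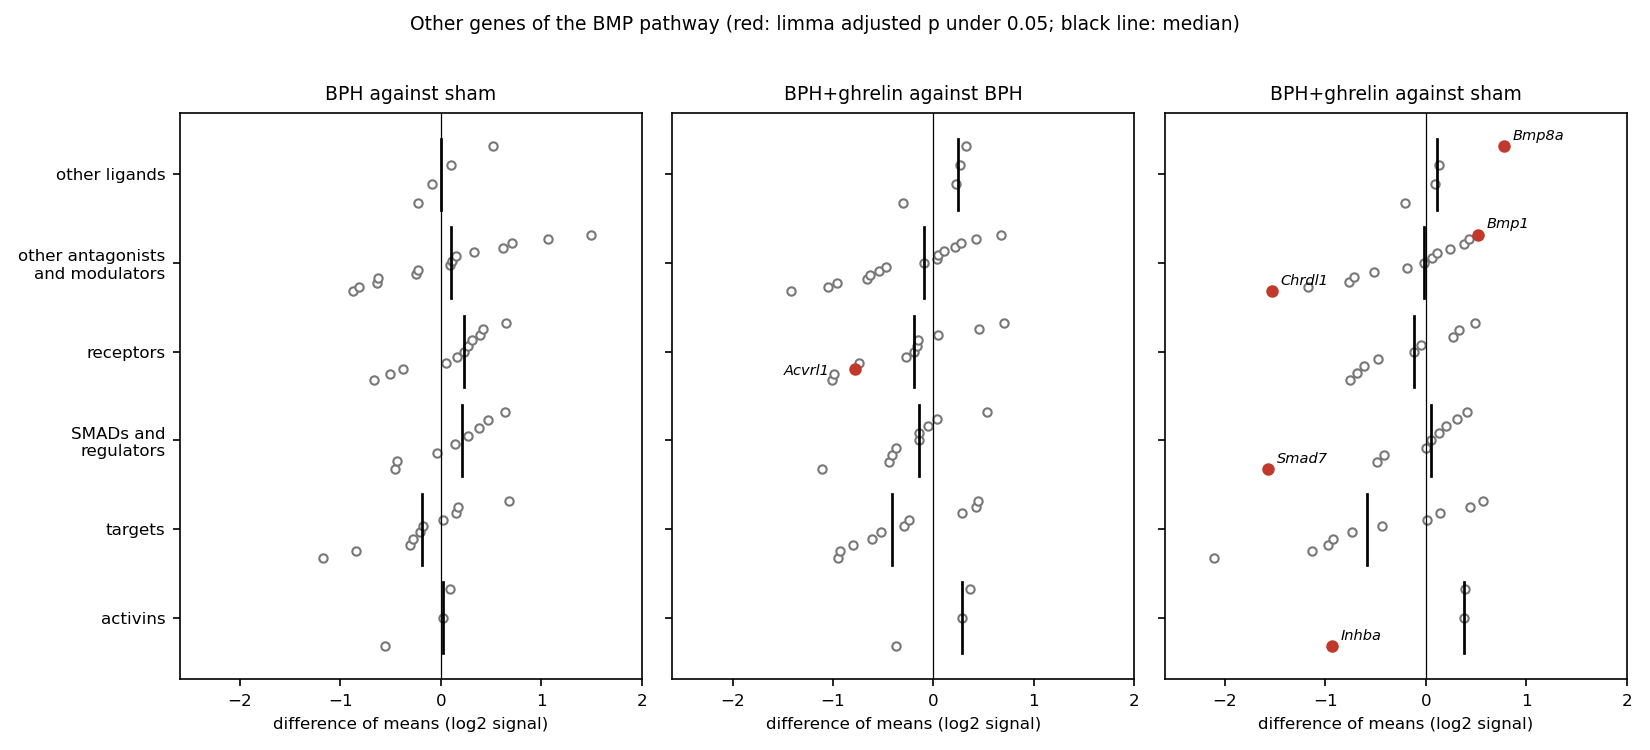
Difference of group means in log2 signal (horizontal axis) for the other genes of the BMP pathway that passed the filter, by role, in each of the 3 comparisons. Each point is a gene, red where its limma adjusted p was under 0.05, and the black line is the median of the role. In BPH+ghrelin against BPH the targets have a median of -0.41 and Acvrl1 is the only red point, and 5 genes are red against sham.

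Markers of several cell types moved with these results. In BPH+ghrelin against BPH, 7 of 8 fibroblast and matrix markers were lower (1 passed the limma test), as were 8 of 8 smooth muscle markers (1 passed). So were 4 of 5 endothelial markers and 4 of 4 fat markers (0 passed in either list). For the fat markers Adipoq and Cfd, this direction rests on BPH+ghrelin replicate 1. Adipoq was 0.58 on that array, 10.88 and 11.94 on the other BPH+ghrelin arrays, and 9.99 to 11.43 in BPH. Cfd was 8.75, then 10.97 and 11.92, and 10.81 to 11.54 in BPH. The mean log2 signal over the fibroblast and matrix list was 10.00 to 10.34 on the BPH arrays, 9.40 to 9.90 on the BPH+ghrelin arrays and 9.02 to 10.18 on the sham arrays. For smooth muscle it was 9.64 to 10.30 in BPH, 9.33 to 9.59 in BPH+ghrelin and 9.38 to 10.27 in sham, and for fat it was 6.90 to 7.75, 3.57 to 7.47 and 4.29 to 7.66. For the endothelial list it was 6.25 to 6.57 in BPH, 5.71 to 5.88 in BPH+ghrelin and 6.20 to 6.48 in sham. The leukocyte list gave 5.28 to 5.73 in BPH, 4.86 to 4.96 in BPH+ghrelin and 5.26 to 5.52 in sham, with 2 of 4 markers lower (1 passed). The endothelial and leukocyte lists were thus lower on all 3 BPH+ghrelin arrays than on all others, and 5 of 6 seminal vesicle and coagulating gland markers and 5 of 6 striated muscle markers were lower than in BPH as well (medians -0.71 and -0.21, 0 passed). The luminal epithelial list gave 11.93 to 12.37 in BPH, 12.17 to 12.40 in BPH+ghrelin and 12.78 to 12.92 in sham. The smooth muscle, fibroblast and matrix lists were detected in full on every BPH and BPH+ghrelin array. Their part in the lower Bmp4, Acvrl1 and target genes was not tested, nor was it for the higher Bmp6 and Grem1. For the comparisons with sham, the median difference of the seminal vesicle and coagulating gland list was -3.50 in BPH and -4.21 in BPH+ghrelin, with 2 and 4 of 6 markers passing the test as lower. Its mean log2 signal on replicates 1 to 3 was 9.92, 8.89 and 9.71 in sham. It was 8.04, 7.46 and 5.17 in BPH, and 6.74, 6.15 and 4.69 in BPH+ghrelin, so this list also varied widely within a group. In BPH+ghrelin against sham, 8 of 8 smooth muscle, 4 of 4 endothelial and 4 of 4 leukocyte markers were lower (1 passed in each list), and of the 8 luminal markers 2 passed as lower and 1 as higher. Of 6 basal epithelial markers, 5 were higher in BPH than in sham (2 passed) and 4 in BPH+ghrelin (1 passed). The part of these lists was not tested either.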

How the data were processed

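Prostate RNA was measured on 9 Agilent one-colour arrays (Cy3), and the group of each array was taken from its label. The intensities deposited by the authors are scanner output of Feature Extraction 11.0.1.1, with background subtracted and no normalization between arrays. The deposited matrix holds log2 values that the authors had quantile normalized (GeneSpring GX 12.1), and was used only as an alternative. Here outlier spots (313 to 741 per array) were removed, spots of a probe were averaged, and log2 values of 30356 probes were quantile normalized. Names came from accessions through the RefSeq table of GRCr8, which named 17998 probes (59.3%). The array annotation is of another build (rn4).

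Each comparison used 6 arrays, and a gene entered it through its brightest probe among those detected above background on 3 or more of them. limma 3.58.1 (R 4.3.3; lmFit and eBayes, 3 groups, two-sided) was used with Benjamini-Hochberg adjustment over all genes. An exact permutation test was not used, as its smallest p with 3 arrays a group is 0.1. The arrays' number limits the precision. Scripts were tested on simulated data. There, 39 to 49% of the 2-fold changes put in were called at an adjusted p under 0.05, and 6.99 to 10.2% of the calls were false. A gene that did not pass may thus still differ.

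The genes, the pathway and marker lists and the alternatives were chosen with earlier results of these data known. All 10 genes are named, and so is each pathway gene with an adjusted p under 0.05 in a comparison or among the 3 smallest p values of one. The 3 genes most alike by Pearson's r are named for each gene above background on at least 6 arrays, except 1 that is not reported here. Target genes were added after their values were seen. The deviations of same-numbered replicates from their group means had r of -0.157 to 0.315. No steady pairing by number was seen, but with 3 arrays per group this check cannot exclude one. For the normexp alternative, the median spot and background signals were used, since the output gives no mean signal.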

Additional observations from a re-analysis of the deposited data

How the results depend on the processing

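The differences of Bmp6, Grem1 and Bmp4 in BPH+ghrelin kept their sign under the other scaling, normexp, the slide block, the deposited matrix and with each array left out. That of Bmp3 between BPH and sham changed sign without sham replicate 2. The ligands and antagonists at least 2-fold apart numbered 0 between BPH and sham with normexp and with the deposited matrix, and 1 in each comparison with BPH+ghrelin with normexp. Over all genes, the calls between BPH and sham were 847, and 533 without the filter, 243 with the replicate block and 2 with slide as a block. Between BPH+ghrelin and BPH they were 293, and 515 with 75th percentile scaling, 195 without the filter, 17 with the replicate block and 2 with the slide block. Between BPH+ghrelin and sham they were 1210, and 803 without the filter, 461 with the replicate block and 84 with the slide block. The pathway count of 1 in BPH+ghrelin against BPH was 2 with 75th percentile scaling, 3 with normexp, 2 with the matrix and 0 with either block. Acvrl1 lost its call with the replicate block (difference -0.78, limma adjusted p = 0.0922). The pathway count of 5 against sham was 3 without the filter, 1 with the replicate block and 0 with the slide block. The replicate block left the differences of the ligands and antagonists as they were. With 1 array left out at a time, calls over all genes ranged from 119 to 3071 (BPH against sham), 3 to 398 (BPH+ghrelin against BPH) and 222 to 1926 (BPH+ghrelin against sham). The pathway counts then ranged from 0 to 4, 0 to 2 and 0 to 15, and the ligands and antagonists at least 2-fold apart from 0 to 2, 2 to 4 and 1 to 5. In BPH against sham the extremes came without BPH replicate 2 (119) and sham replicate 1 (3071), in BPH+ghrelin against BPH without BPH replicates 2 (3) and 3 (398), and against sham without BPH+ghrelin replicate 2 (222) and sham replicate 2 (1926). The cause of these shifts was not tested. Faint probes (Grem1, Nog, Bmp3 and Bmp6 outside BPH+ghrelin) lie near background, which limits their folds.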
